A study of Mus musculus with 5 samples.

Results

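The genes described here are 32 genes of DNA replication and S phase, taken by symbol from the 27179 genes of the count table. All 32 were found. They were sorted by role into the MCM helicase (6 genes), nucleotide supply (4), polymerases and fork factors (16) and regulators of the step from G1 into S phase (6). Messenger RNA came from Langerhans cells, antigen-presenting cells of the epidermis, which were purified from skin. The mice were C57BL/6 and 1 week old. Each library came from 5000 cells and was amplified by a SMART-Seq protocol. There were 2 biological replicates of wild type and 3 of Suz12 cKO, a conditional knockout of Suz12, and Suz12 encodes a core subunit of Polycomb repressive complex 2. The Cre driver was not given, and nor were the deleted exons, in the sources used here. In Suz12 itself 88 and 39 counts were found in wild type replicates 1 and 2 and 0, 0 and 7 in cKO replicates 1 to 3, which is the direction of the labels.

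Before S phase, Cdc6 and Cdt1 load the MCM2 to MCM7 ring onto origins of replication. The ring becomes the active helicase when CDC45 and the GINS complex join it. Primase and DNA polymerase alpha start new strands, polymerases delta and epsilon extend them on the PCNA clamp, and FEN1 and DNA ligase 1 finish the lagging strand. Many of these genes are targets of E2F transcription factors, and cyclin E drives cells into S phase. Langerhans cells settle the epidermis before birth and are known to proliferate there in the first days of life.

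The promoters of the genes are shown here because E2F control is the textbook link between them. RefSeq promoter windows (GRCm38.p6, the assembly of mm10), from 250 bases before to 50 bases after a start, were found for 26 of the 32 genes. No entry was matched for Mcm4, Pole, Gins2, Tipin, Dscc1 and Ccne2. The windows were searched on both strands for 3 E2F motifs, TTTCGCGC, TTTGGCGC and TTTCCCGC, and for CCAAT. These motifs can overlap one another on opposite strands. An E2F motif lay in a window of 11 of the 26 genes (42.3%), against 573 of all 27025 genes in the promoter table (2.12%). For the MCM genes it was 4 of 5 (Mcm3, Mcm5, Mcm6 and Mcm7). The others were Pola1, Pold1, Lig1, Clspn, Uhrf1, Cdc6 and Cdt1. CCAAT lay in a window of 16 of the 26 genes (61.5%) and of 41.1% of all genes. The lines below give 2 MCM windows with E2F motifs and the windows of 3 genes whose libraries did not overlap between genotypes. Sequences run 5′ to 3′ along the gene, and capitals mark E2F motifs and CCAAT on either strand.
Mcm3, chr1:20820263-20820562, minus strand: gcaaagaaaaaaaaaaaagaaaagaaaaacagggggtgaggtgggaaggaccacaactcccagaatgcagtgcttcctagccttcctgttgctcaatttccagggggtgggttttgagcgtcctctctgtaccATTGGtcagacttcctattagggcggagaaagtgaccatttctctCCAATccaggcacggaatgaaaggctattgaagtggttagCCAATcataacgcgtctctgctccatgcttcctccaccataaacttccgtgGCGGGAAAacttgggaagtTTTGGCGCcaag
Mcm7, chr5:138171834-138172133, minus strand: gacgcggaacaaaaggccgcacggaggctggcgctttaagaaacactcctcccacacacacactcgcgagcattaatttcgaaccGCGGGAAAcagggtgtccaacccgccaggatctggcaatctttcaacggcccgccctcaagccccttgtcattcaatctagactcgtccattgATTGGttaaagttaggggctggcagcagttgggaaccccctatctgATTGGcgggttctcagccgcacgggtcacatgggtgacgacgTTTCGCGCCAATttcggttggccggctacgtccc
Rrm1, chr7:102441445-102441744, plus strand: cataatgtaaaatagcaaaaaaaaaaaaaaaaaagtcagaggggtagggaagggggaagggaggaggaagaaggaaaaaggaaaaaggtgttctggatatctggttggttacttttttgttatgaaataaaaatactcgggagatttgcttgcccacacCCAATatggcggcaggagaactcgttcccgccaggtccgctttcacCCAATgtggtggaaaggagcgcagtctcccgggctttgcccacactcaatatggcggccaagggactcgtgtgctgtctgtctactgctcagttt
Slbp, chr5:33652525-33652824, minus strand: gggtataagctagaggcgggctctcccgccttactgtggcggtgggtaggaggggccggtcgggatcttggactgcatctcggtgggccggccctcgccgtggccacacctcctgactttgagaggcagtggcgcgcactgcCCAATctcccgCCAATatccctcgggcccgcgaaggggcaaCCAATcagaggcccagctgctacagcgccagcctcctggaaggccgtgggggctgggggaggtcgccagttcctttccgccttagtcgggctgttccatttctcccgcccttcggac
Pcna, chr2:132253131-132253430, minus strand: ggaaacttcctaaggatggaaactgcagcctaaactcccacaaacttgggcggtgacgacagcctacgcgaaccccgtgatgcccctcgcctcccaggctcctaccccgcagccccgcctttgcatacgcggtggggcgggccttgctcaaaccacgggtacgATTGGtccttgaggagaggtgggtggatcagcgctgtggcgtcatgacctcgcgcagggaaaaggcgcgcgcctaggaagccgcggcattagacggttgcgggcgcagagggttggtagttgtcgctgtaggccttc
In the Mcm3 window the E2F motifs began 19 and 38 bases after the start site, and in the Mcm7 window shown 165 bases before and 16 bases after it. The other Mcm7 window, chr5:138171217-138171516, held 0 E2F motifs. For the Mcm5 and Mcm6 windows the stretch after the start was not found in a GENCODE transcript of the gene. None of the 3 searched E2F motifs lay in the windows of Rrm1, Slbp or Pcna, whereas CCAAT began 91 and 45 bases before the start of Rrm1, at 3 places before that of Slbp, and 87 bases before that of Pcna. A match is a description of the sequence, and binding was not measured.

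The libraries held 12090062 to 25725900 counts assigned to genes. Levels are given as CPM, the counts of a gene per 1e+06 counts of the effective library size, and 1 CPM equals 11.65 to 28.25 counts. A count of 0 still allows a level of up to 3 counts, a floor of 0.106 to 0.258 CPM that covers counting error only. All 9 Langerhans cell markers lay at 1 CPM or more in every library (Cd207, langerin, 6639 to 14597 CPM; Epcam 1042 to 1634 CPM). The source label reads alveolar macrophage, and of 7 alveolar macrophage genes Siglecf, Car4, Chil3 and Fabp1 had no count in any library. Of the other 3, Ear2 had 1130 to 8805 counts and Krt79 1341 to 3324 counts per library, and Marco had 864 and 2 counts in wild type and none in cKO. All values are from bulk RNA, in which fewer cycling cells and less RNA per cell cannot be told apart.

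No replication gene passed the test, and their summed level overlapped between the genotypes. The 32 genes summed to 1078 and 1084 CPM in wild type replicates 1 and 2, and to 987, 1267 and 1162 CPM across cKO replicates 1 to 3. The cKO libraries thus lay on both sides of the wild type ones. The filter on low counts left 28 of the 32 genes to test. edgeR's quasi-likelihood test with Benjamini-Hochberg adjustment over all genes called 0 of the 28 and 0 of 9988 genes in all (0%). At an unadjusted p of 0.05 it called 0 of the 28, against 415 of all genes (4.15%). DESeq2 called 0 of the 28 by adjusted p (smallest 0.578 for Tipin) and 191 of all genes (1.91%). By unadjusted p it called 0 of the 28, with no p for 3 of them, and 857 of all genes (8.58%). Of the 28, 13 had fitted log2 fold changes (cKO minus wild type) above 0 and 15 below, with a median of -0.02. All genes tested had a median of 0.06 and 52.5% above 0.

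**Figure D1:**
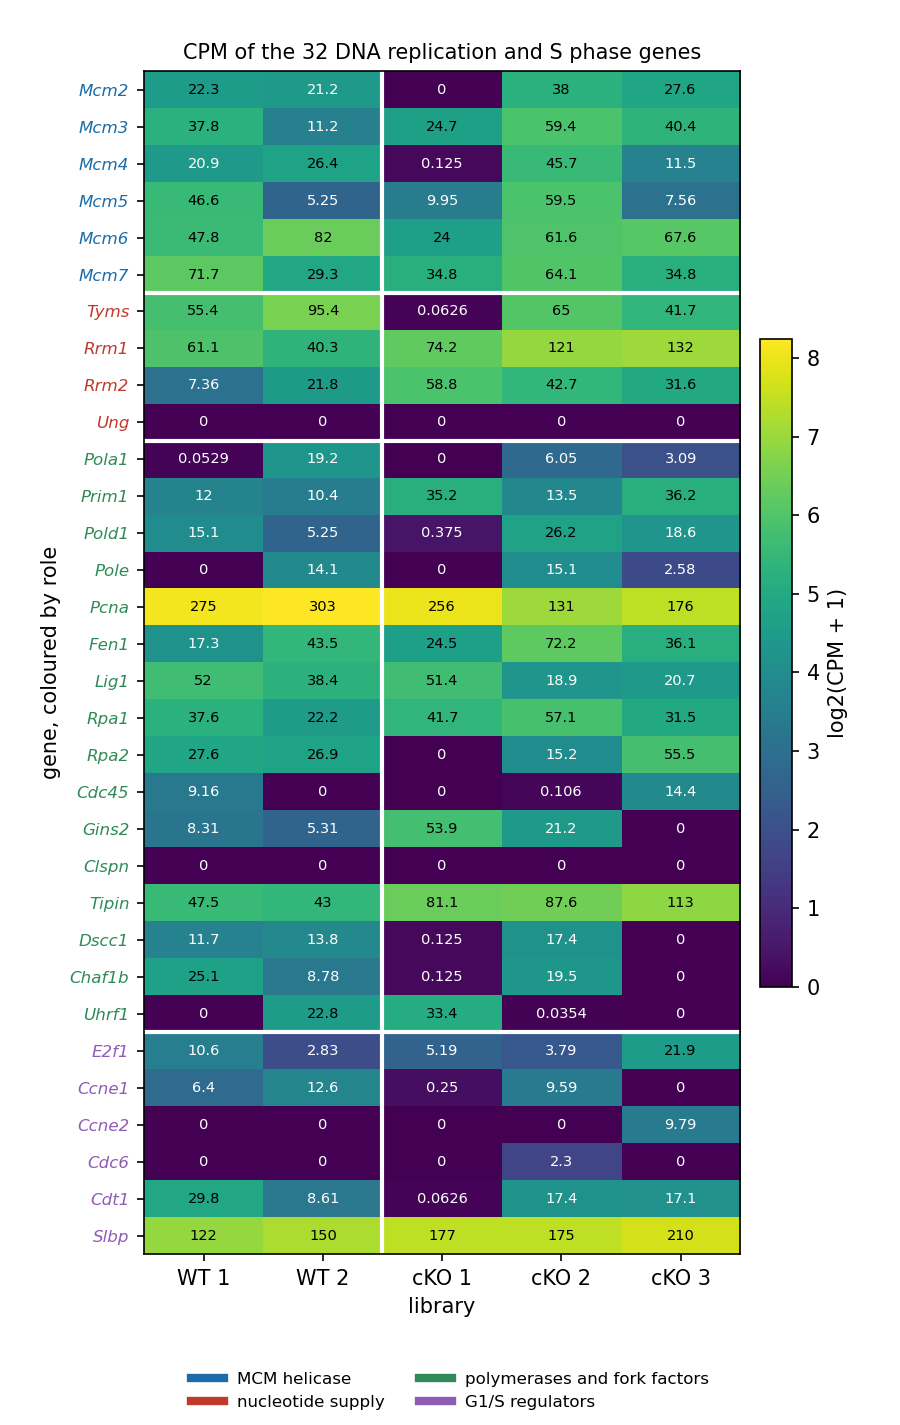
CPM of the 32 genes (rows, coloured by role) in the 5 libraries (columns); colour is log2(CPM + 1) and the printed numbers are CPM. Pcna and Slbp are high in all libraries, and many other genes are near 0 in 1 or more libraries, most often in cKO replicate 1.

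For 6 genes there was no overlap between the genotypes, 5 with all cKO libraries above both wild type libraries and 1 with all below. These were Tipin, Rrm1, Rrm2, Prim1 and Slbp on the higher side and Pcna on the lower side. They make up 21.4% of the 28 tested genes, close to the 19% found over all genes tested (8.87% higher and 10.2% lower), so the count does not set replication genes apart. In RefSeq none of these 6 overlaps another gene of the count table. For Pcna, RefSeq also lists the pseudogenes Pcna-ps1 and Pcna-ps2, which have no row in the count table. How reads that match them were treated is not given in the sources used here. Tipin lies at chr9:64281491-64305422, Rrm2 at chr12:24708254-24714146 and Prim1 at chr10:128015215-128030030 (GRCm38.p6).

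**Figure D2:**
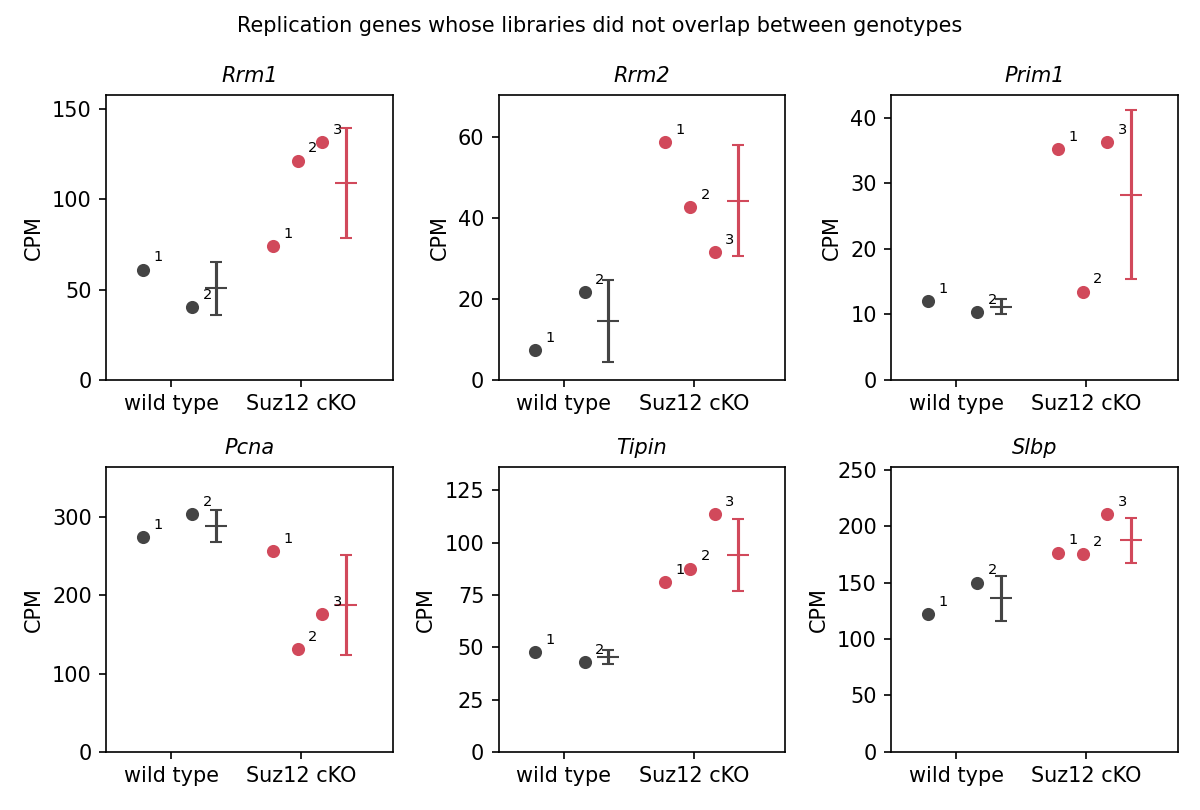
CPM (y axis, from 0) of the 6 genes without overlap, by genotype; points are libraries with their replicate numbers, and the line with bars is the mean ± SD (n = 2 wild type, n = 3 cKO). Tipin lies at 43.0 and 47.5 CPM in wild type mice and at 81.1 to 113 CPM in cKO, and Pcna is the only one of the 6 that is lower in cKO.

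No MCM helicase gene had groups without overlap, and their fitted changes went in both directions. Mcm2 lay at 22.3 and 21.2 CPM in wild type replicates 1 and 2, and at 0, 38 and 27.6 CPM across cKO replicates 1 to 3. Mcm4 lay at 20.9 and 26.4 CPM in wild type mice and at 0.125 (2 counts), 45.7 and 11.5 CPM in cKO. In both genes the wild type libraries lay close to each other, while cKO replicate 1 was at or under the floor and cKO replicate 2 was the highest of all 5. Mcm5 lay at 46.6 and 5.25 CPM in wild type mice and at 9.95, 59.5 and 7.56 CPM in cKO, so that here the libraries of each genotype lay far apart. Mcm3 had 37.8 and 11.2 CPM in wild type mice, and 24.7, 59.4 and 40.4 CPM in cKO, and one cKO library between the wild type ones. Its fitted change became 1.89 once wild type replicate 1 was left out, and 0.15 once wild type replicate 2 was. Mcm6 and Mcm7 were found in all libraries, at 24.0 to 82 CPM and at 29.3 to 71.7 CPM, with groups that overlapped. Reads of Mcm7 can be shared with Ap4m1 and 3 miRNA genes that overlap it. The fitted log2 fold changes were between -0.35 (Mcm6, standard error 0.64) and 0.76 (Mcm3, standard error 0.87), and the edgeR adjusted p was 0.999 for all 6 genes. For Mcm2 the change was 0.01 with a 95% interval of -4.97 to 4.99.

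The 6 subunits form a ring with 1 copy of each, and their transcripts were compared per length, as CPM per kilobase (kb) of the deposited gene length. In cKO replicate 2 they lay closest to each other, at 11.3 (Mcm2) to 26.8 (Mcm7) CPM per kb, a ratio of 2.37. The highest subunit exceeded the lowest 5.15 times in wild type replicate 1, 18.4 times in wild type replicate 2 and 10.5 times in cKO replicate 3. In cKO replicate 1 Mcm2 had no count and Mcm7 lay at 14.5 CPM per kb. The subunits summed to 85.5 and 59.5 CPM per kb in wild type, and to 34.3, 110 and 65.4 CPM per kb in cKO replicates 1 to 3. The lowest and the highest sums were therefore both found in cKO libraries.

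**Figure D3:**
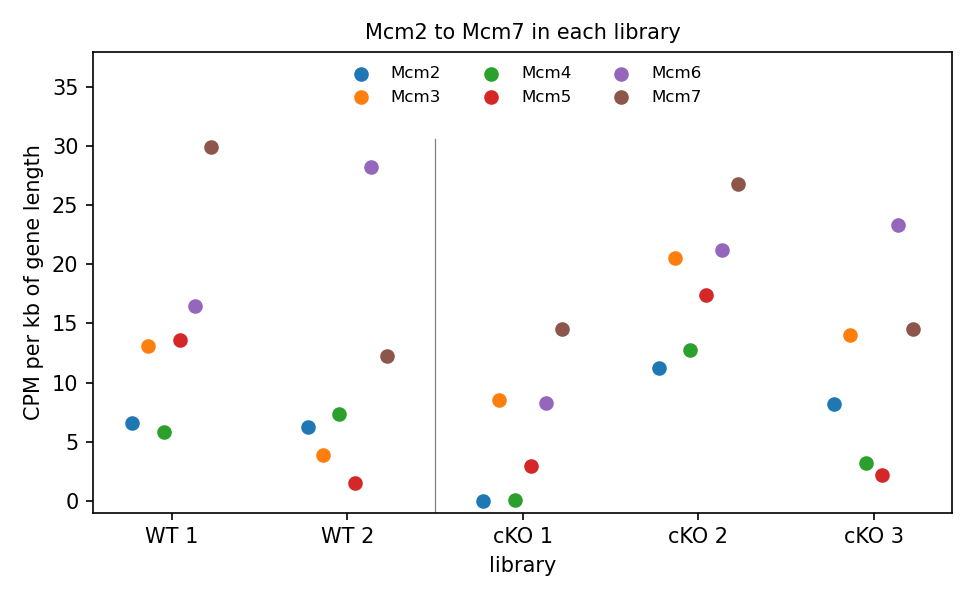
CPM per kb of gene length (y axis) of Mcm2 to Mcm7 in each library (x axis), one colour per subunit. The subunits lie at 11.3 to 26.8 CPM per kb in cKO replicate 2, whereas Mcm2 and Mcm4 are at or next to 0 in cKO replicate 1.

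Of the genes of nucleotide supply, the ribonucleotide reductase genes Rrm1 and Rrm2 lay higher in every cKO library. Rrm2b, from the list of further genes described below, did not. It lay at 0 and 10.6 CPM in wild type mice and at 0, 4.04 and 0 CPM across cKO replicates 1 to 3. Rrm1, the large catalytic subunit, lay at 61.1 and 40.3 CPM in wild type mice, and at 74.2, 121 and 132 CPM across cKO replicates 1 to 3. The mean was 50.7 ± 14.7 CPM in wild type mice and 109 ± 30.6 CPM in cKO mice (SD, n = 2 and n = 3). The log2 fold change was 1.10, standard error 0.48 (95% interval -0.05 to 2.26, edgeR unadjusted p = 0.0576, adjusted p = 0.968). Rrm2, the small subunit that limits the enzyme's activity to S phase, lay at 7.36 and 21.8 CPM in wild type mice and at 58.8, 42.7 and 31.6 CPM in cKO. Its log2 fold change was 1.61, standard error 0.88 (95% interval -0.50 to 3.71, edgeR adjusted p = 0.999). Leaving out wild type replicate 2 gave 2.59, and leaving out wild type replicate 1 gave 1.03. For Rrm2 the gap between the wild type libraries was wider than that between the higher of them and cKO replicate 3. Tyms, thymidylate synthase, went the other way in its fitted change (-1.08, standard error 1.68), which was -0.47 without cKO replicate 1 and -1.85 without cKO replicate 2. It lay at 55.4 and 95.4 CPM in wild type mice, and had 1 count in cKO replicate 1 and 65.0 and 41.7 CPM in cKO replicates 2 and 3. A processed copy of the gene, Tyms-ps, is counted as a row of its own, and how reads that match both were treated is not given in the sources used here. Ung, which removes uracil from DNA, had no count in any library.

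Among the polymerase and fork genes, Tipin had the smallest p of the 32 genes. TIPIN forms with TIMELESS the complex that steadies stalled forks. It lay at 47.5 and 43.0 CPM in wild type replicates 1 and 2, and at 81.1, 87.6 and 113 CPM across cKO replicates 1 to 3. The groups did not overlap, and the wild type libraries lay close to each other. The log2 fold change was 1.05, standard error 0.46 (95% interval -0.03 to 2.14, edgeR unadjusted p = 0.0544, adjusted p = 0.968). Prim1, the catalytic subunit of primase, lay at 12 and 10.4 CPM in wild type mice and at 35.2, 13.5 and 36.2 CPM in cKO, with cKO replicate 2 next to the wild type libraries (log2 fold change 1.34, standard error 1.13).

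Pcna, the sliding clamp, had the highest mean of the 32 genes per length, at 104 to 241 CPM per kb. It lay at 275 and 303 CPM in wild type mice and at 256, 131 and 176 CPM in cKO. The means were 289 ± 20.4 and 188 ± 63.3 CPM (SD, n = 2 and n = 3). The log2 fold change was -0.62, standard error 0.37 (95% interval -1.50 to 0.26, edgeR adjusted p = 0.999), and cKO replicate 1 lay next to wild type. Lig1, which seals the nicks between Okazaki fragments, had a similar order in its libraries without separation, at 52.0 and 38.4 CPM in wild type mice and 51.4, 18.9 and 20.7 CPM in cKO. Fen1, the flap nuclease that acts with it, lay at 17.3 to 72.2 CPM and Rpa1, a subunit of the protein that coats single-stranded DNA, at 22.2 to 57.1 CPM, both with overlapping groups. Its partner subunit gene Rpa2 lay at 27.6 and 26.9 CPM in wild type mice and at 0, 15.2 and 55.5 CPM in cKO, which spans both sides of wild type. Reads of Fen1, Lig1, Rpa1, Gins2, Cdc45, E2f1, Ung and Ccne2 can be shared with a gene of the table that overlaps each of them.

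The large polymerase genes and several factors of the fork were patchy. Pola1, the catalytic subunit of polymerase alpha, had 1 count in wild type replicate 1 and none in cKO replicate 1, and lay at 19.2 CPM in wild type replicate 2 and at 6.05 and 3.09 CPM in cKO replicates 2 and 3. Pole, that of polymerase epsilon, had no count in the first replicate of either genotype and lay at 14.1, 15.1 and 2.58 CPM in the other libraries. Pold1, that of polymerase delta, had a count in all libraries, from 0.375 CPM in cKO replicate 1 to 26.2 CPM in cKO replicate 2. The helicase cofactor gene Cdc45 lay at 9.16 CPM in wild type replicate 1 and 14.4 CPM in cKO replicate 3, with 0 to 3 counts in the other libraries. Gins2 lay at 8.31 and 5.31 CPM in wild type, at 53.9 and 21.2 CPM in cKO replicates 1 and 2, and had no count in cKO replicate 3. Uhrf1, which brings the maintenance methyltransferase to new DNA, lay at 22.8 CPM in wild type replicate 2 and 33.4 CPM in cKO replicate 1 and had 0 or 1 count in the other libraries. Dscc1, a subunit of a clamp loader, and Chaf1b, of the histone chaperone CAF-1, were alike in that both lay at 8.78 to 25.1 CPM in wild type mice and cKO replicate 2, with 0 or 2 counts in cKO replicates 1 and 3. Clspn, which encodes the checkpoint adaptor claspin, had no count in any library.

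Of the G1/S regulators Slbp alone had separate groups. Slbp binds the stem-loop of histone mRNAs and lay at 122 and 150 CPM in wild type mice, and at 177, 175 and 210 CPM in cKO. The means were 136 ± 19.7 and 187 ± 19.9 CPM (SD, n = 2 and n = 3), with a log2 fold change of 0.46 and a standard error of 0.33 (edgeR adjusted p = 0.999). Per length its mean was next after that of Pcna, at 74.8 to 129 CPM per kb, and their ranges overlapped. The licensing factor gene Cdt1 lay at 29.8 and 8.61 CPM in wild type mice, and had 1 count in cKO replicate 1 and 17.4 and 17.1 CPM in cKO replicates 2 and 3. Its partner Cdc6 had 65 counts in cKO replicate 2 and none elsewhere. The cyclin E genes were not found together in any library. Ccne1 lay at 6.40 and 12.6 CPM in wild type mice and 9.59 CPM in cKO replicate 2, with 4 and 0 counts in cKO replicates 1 and 3. Ccne2 had 114 counts in cKO replicate 3 and none elsewhere. For E2f1, a transcription factor of the E2F family, the range was 2.83 to 21.9 CPM, and the groups overlapped.

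**Figure D4:**
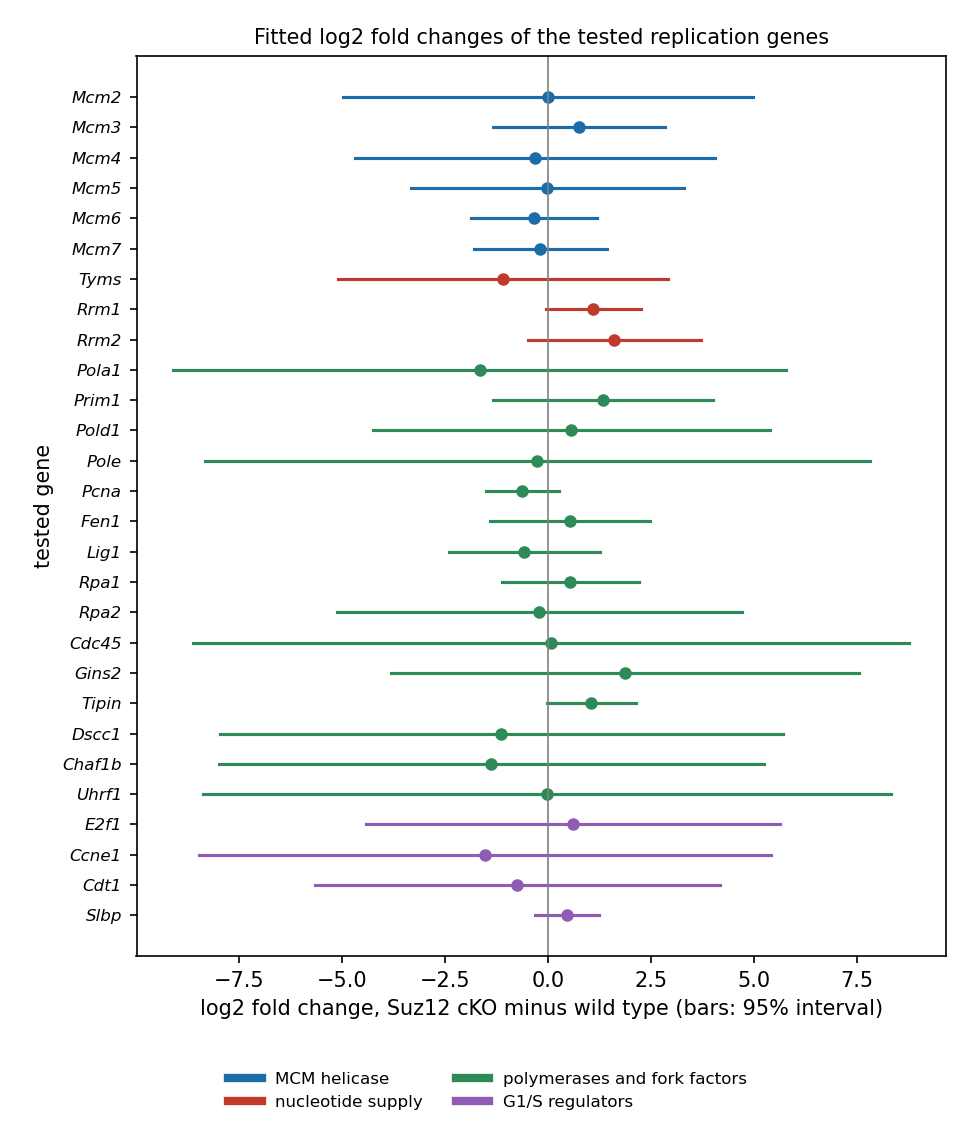
Fitted log2 fold changes, cKO minus wild type (x axis), of the 28 tested genes (y axis, coloured by role); points are estimates and bars 95% intervals. All 28 intervals include 0, and the narrowest belong to genes found in every library, such as Slbp, Pcna and Tipin.

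Many of the genes were present in some libraries and missing from others of the same genotype. In wild type replicates 1 and 2, 3 (10.7%) and 1 (3.57%) of the 28 tested genes lay under 1 CPM, against 21.1% and 18.9% of all genes tested. In cKO replicates 1 to 3 it was 12 (42.9%), 2 (7.14%) and 5 (17.9%), against 24.3%, 16.2% and 23.7%. The share of replication genes was thus below that of all genes in 4 libraries and above it in cKO replicate 1, and the difference between these shares was not tested. Of 23 genes at 5 CPM or more in both wild type libraries, 9 (39.1%) lay under 1 CPM in cKO replicate 1. Of all genes at that level in wild type it was 11.3%. The 9 were Mcm2, Mcm4, Tyms, Pold1, Rpa2, Dscc1, Chaf1b, Cdt1 and Ccne1. In cKO replicate 3 it was 4 of the 23 (Ccne1, Chaf1b, Dscc1 and Gins2), or 17.4% against 10.6% of all such genes. In cKO replicate 2 it was 0, against 5.34%. The difference between these shares was not tested either. These 23 were taken for being present in wild type, so that only absence from cKO could be seen. Of the 13 genes at 5 CPM or more in all cKO libraries, 0 lay under 1 CPM in a wild type library, against 4.69% and 4.24% of all such genes in wild type replicates 1 and 2. Another 3 replication genes had their highest level in cKO replicate 1, with Rrm2 at 58.8 CPM, Gins2 at 53.9 CPM and Uhrf1 at 33.4 CPM. In all, 14 of the 28 tested genes (50%) lay at 10 CPM or more in 1 library and under 1 CPM in another, against 36.9% of all genes tested. In cKO replicate 1 there were 17384033 counts, where the libraries held 12090062 to 25725900, and a gene at 1 CPM would have had 15.98 counts in it. It had 9576 genes with a count, and the other libraries had 9103 to 10220. The part of depth or library quality in its missing genes was not tested.

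**Figure D5:**
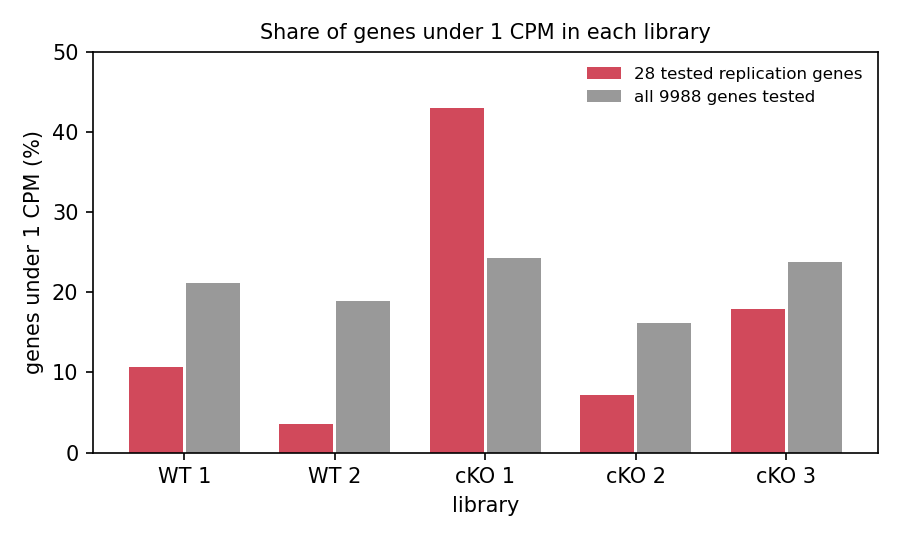
Share of genes under 1 CPM (y axis, percent) in each library (x axis), for the 28 tested replication genes (red) and all 9988 genes tested (grey). The red bar exceeds the grey one in cKO replicate 1 alone, at 42.9% against 24.3%.

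The sample titles are written in 2 styles, one shared by wild type replicate 1 and cKO replicates 1 and 2 and the other by wild type replicate 2 and cKO replicate 3. What the styles stand for is not given in the sources used here. Since the cKO and wild type libraries of the 6 genes without overlap are apart, any split of the libraries gives them the same direction, and the values within a style show only sizes. Within the first style the ratio of cKO (mean of 2 libraries) to wild type was 1.44 (Slbp) to 6.90 (Rrm2) for the 5 higher genes and 0.705 for Pcna. Within the second, with 1 library each and no replicate, it was 1.40 (Slbp) to 3.49 (Prim1) and 0.580. Rrm2 had 6.90 in the first style and 1.45 in the second, which had the higher wild type level.

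None of the other genes of the pathway was called. In a list of 99 further genes of origin licensing, fork and clamp factors, nucleotide supply, chromatin copying, G1/S control and fork repair, 80 could be tested and edgeR called 0. By unadjusted p edgeR called 1 of the 80, against 4.15% of all genes, and DESeq2 called 7, against 8.58% of all genes, and DESeq2 called 0 by adjusted p. Of the 80, 38 had fitted changes above 0 and 42 below (median -0.05), and 9 (11.2%) had groups that did not overlap, against 19% of all genes tested. Myc, the growth-promoting transcription factor, lay at 34.4 and 31.0 CPM in wild type mice and at 94.98, 136 and 42.6 CPM in cKO (log2 fold change 1.48, standard error 0.63, edgeR adjusted p = 0.968). In the list, 3 of the 4 genes with the smallest p on the higher side had no count in wild type. Their folds are therefore lower bounds against 3 counts over the wild type group. These bounds cover counting error only, not the spread between libraries. The 3 genes passed the filter on low counts only through cKO libraries, so only a higher level in cKO could be seen. In the list, 43 of the 80 tested genes (53.8%) lay at 10 CPM or more in 1 library and under 1 CPM in another. Of all genes tested it was 36.9%. Mcm8, a helicase of recombination, was at least 176-fold higher in pooled cKO and had 410, 415 and 0 counts in cKO replicates 1 to 3. Cdc25a, the phosphatase that activates CDK2, had 100, 897 and 0 counts in cKO and was at least 213-fold higher, or at least 43.3-fold without cKO replicate 2. The checkpoint kinase gene Atr had 1, 348 and 64 counts and was at least 88.3-fold higher, or at least 28.1-fold without cKO replicate 2. For Mcm8, Cdc25a and Atr the edgeR adjusted p was 0.968. The 95% intervals of their log2 fold changes included 0 (-0.86 to 22.8, -1.21 to 22.9 and -0.96 to 20.5).

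On the lower side Atad5, which helps to unload PCNA, lay at 12.8 and 4.24 CPM in wild type mice and was without a count in the cKO libraries (at least 163-fold lower over the group, or at least 79.1-fold without wild type replicate 1; edgeR adjusted p = 0.968). Pold2, the accessory subunit of polymerase delta, lay at 98.4 and 62.5 CPM in wild type mice and at 4.51, 35.8 and 22.8 CPM in cKO. Its log2 fold change was -1.93, standard error 0.90 (edgeR adjusted p = 0.968). The histone chaperone genes Asf1a and Asf1b lay at 62.5 ± 22.4 and 58.6 ± 25.4 CPM in wild type (SD, n = 2) and at 28.3 ± 7.89 and 28.5 ± 14.8 CPM in cKO mice (SD, n = 3), and the groups overlapped for Asf1b but not for Asf1a.

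A list of 20 genes of G2 and mitosis summed to 1831 and 2000 CPM in wild type mice and to 1084, 1165 and 1531 CPM across cKO replicates 1 to 3, without overlap, whereas the sums of the 32 replication genes overlapped. Both sums lean on a few abundant genes. In the G2 and mitosis sum Hmgb2 lay at 569 and 611 CPM in wild type mice and at 309, 329 and 430 CPM in cKO. In the replication sum Pcna lay at 131 to 303 CPM and Slbp at 122 to 210 CPM. The difference between these lists was not tested. Of the 19 G2 and mitosis genes that could be tested, 16 had fitted changes below 0 (median -0.79), against 47.5% of all genes tested. edgeR called 0 of them by adjusted p and 2 by unadjusted p (Hmgb2 and Ube2c), against 4.15% of all genes. Cdk1, the kinase that drives mitosis, lay at 205 and 212 CPM in wild type mice and at 40.6, 75.3 and 150 CPM in cKO (log2 fold change -1.23, standard error 0.56, edgeR adjusted p = 0.968). Top2a lay at 32.9 and 90.8 CPM in wild type mice and 19.1 to 38.8 CPM in cKO. Ccnb1 lay at 11.3 and 26.9 CPM in wild type mice and 8.76 to 53.1 CPM in cKO, and Mki67, the proliferation marker, ranged from 0 to 14.1 CPM in wild type mice and from 1.81 to 29.9 CPM in cKO.

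Markers of other skin cells varied between the libraries. The 11 keratinocyte genes summed to 321 and 737 CPM in wild type mice and 782 to 1132 CPM in cKO, with 8 and 10 of them at 1 CPM or more in wild type and 8 to 11 in cKO. Dsp had no count in wild type, and Trp63 had none in cKO replicates 1 and 3. Krt14 lay at 89.5 and 235 CPM in wild type mice and 134 to 215 CPM in cKO, and Krt10 at 9.05 and 25.4 CPM and at 40.5 to 118 CPM. The keratinocyte sum thus lay higher in all cKO libraries, as did Tipin, Rrm1, Rrm2, Prim1 and Slbp, and its part in their values was not tested. The 7 T cell genes summed to 485 to 649 CPM in wild type mice and 246 to 754 CPM in cKO, with 5 of them at 1 CPM or more in both wild type libraries and 5 to 6 in cKO. The highest and the lowest T cell sum were both in cKO. Cd3d lay at 106 and 67.6 CPM in wild type mice and 21.8 to 41.8 CPM in cKO, without overlap. Cd3g was highest in cKO replicate 1, at 540 CPM, and Cd3e (11.6 to 24.8 CPM) and Cd2 (42.7 to 89.4 CPM) overlapped between the genotypes. Thy1 had no count in 4 of the 5 libraries. The 5 melanocyte genes summed to 39.6 and 429 CPM in wild type mice and 32.7 to 143 CPM in cKO. The 8 genes of fibroblasts and endothelium summed to 21.2 and 109 CPM in wild type mice and 9.76 to 211 CPM in cKO, and Cdh5 had no count in any library. The part of these cells in the values of the replication genes was not tested.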

How the data were processed

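The authors deposited raw counts per gene for each of 5 libraries, with gene lengths in bases, counted by featureCounts on the mm10 build, per the submitters' processing notes. No aligner, tool version, strand setting or rule for multiply matching reads was given in the sources used here. Reads were 75 bp paired-end, per the design text. Each sample's own file held the same values as the series table. RefSeq symbols (GRCm38.p6) were found for 25275 of 27179 identifiers, and the other 1904 stayed in the fit.

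The 32 genes and all lists were chosen with earlier results of these data known. One fit over the whole table used edgeR 4.0.16 in R 4.3.3, with filterByExpr (minimum count 10), TMM factors, the robust quasi-likelihood F test on genotype, and Benjamini-Hochberg adjustment at 0.05. CPM are counts over the effective library size. The 32 genes are all named, and from the wider list the 4 with the smallest p in each direction, and Rrm2b beside Rrm1 and Rrm2. A fold against a group at 0 used 3 counts over the group.

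Alternatives were DESeq2 1.42.0, RLE factors, no filter, a minimum count of 50, a replicate block, the title style as a term, and each library left out. The count of genes without overlap was also taken without each library, and bounds against a group at 0 without the library with most counts, both chosen after seeing the data. Same-group libraries did not agree within counting noise (chi-square per degree of freedom 191 to 445). Both tools were first tested on simulated data. Protein sequences were not used here. Figures used matplotlib 3.10.9.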

Additional observations from a re-analysis of the deposited data

How the results depend on the processing

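In all 11 alternative fits 0 of the 32 genes and 0 of the wider list were called, which shows little about stability, since edgeR called no gene at all in the fit reported. The fits without a wild type library leave 1 there, assumed to vary like the cKO libraries. The count over all genes was 191 with DESeq2 and 1 (Il10, named after its value was seen) with the replicate block, and 0 in the other fits. The labels tie the replicate numbers to no shared animal or day, and deviations of same-numbered libraries correlated at r = -0.0269 and -0.0245 over 2 pairs. Of the 28 tested genes 13 kept the sign of their change in every fit that gave a value, of which 6 had groups without overlap, a choice that fixes the direction with a library left out. Their sizes moved: with 1 library left out the log2 fold changes ran Ccne1 -6.13 to -0.90, Chaf1b -7.87 to -0.42, Dscc1 -7.46 to -0.50, Lig1 -1.17 to -0.33, Mcm3 0.15 to 1.89, Pcna -0.90 to -0.42, Prim1 1.11 to 1.67, Rpa1 0.22 to 0.98, Rrm1 0.84 to 1.44, Rrm2 1.03 to 2.59, Slbp 0.33 to 0.62, Tipin 0.91 to 1.17 and Tyms -1.85 to -0.47. The other 15 changed sign at least once (38 of 306 values). The cause was not tested. In the replicate block fit cKO replicate 3 has no wild type partner, so the genotype change there rests on replicates 1 and 2. With the replicate block the log2 fold changes of opposite sign were Mcm2 -3.99, Mcm5 0.64, Mcm7 0.0429, Pold1 -1.45, Pole 0.0716, Cdc45 -3.20, Uhrf1 0.49 and E2f1 -0.31. With the title style as a term they were Pola1 1.58, Pole 3.26, Cdc45 -5.19 and Gins2 -2.11, and without a filter Mcm5 0.0154. With each library left out in turn the ranges were Cdc45 -0.92 to 9.46, Cdt1 -1.35 to 0.42, E2f1 -0.58 to 1.86, Fen1 -0.00441 to 1.38, Mcm2 -0.65 to 0.62, Mcm4 -2.02 to 0.31, Mcm5 -1.57 to 2.30, Mcm6 -0.68 to 0.11, Mcm7 -0.67 to 0.61, Pola1 -2.65 to 5.71, Pold1 -0.10 to 1.53, Pole -2.45 to 9.81, Rpa2 -1.80 to 0.38 and Uhrf1 -1.02 to 10.67. The ranges that reach beyond 5 in size do so where the library left out leaves a genotype with 0 to 4 counts per library, and such values depend on the prior count of the fit. The count of genes without overlap was 6, and 9 to 15 with 1 library left out, where fewer libraries overlap less often. Without cKO replicate 1 it was 10 (35.7% of the tested genes, against 31.6% of all genes tested), and without wild type replicate 1 it was 15 (53.6%, against 42.1%). It was 11 (39.3%) without wild type replicate 2, against 42.5%, and 11 (39.3%) without cKO replicate 2, against 35.5%. Without cKO replicate 3 it was 9 (32.1%, against 32.3%). At 20 CPM and under 0.5 CPM, 9 genes (32.1%) in place of 14 switched between libraries, against 20.2% of all genes tested. DESeq2, a minimum count of 50 and RLE factors changed no sign. The wide intervals of genes at 0 in some libraries limit what these 5 libraries can show.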
